A study of Mus musculus with 3 samples.

Results

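Ribosome biogenesis is the stepwise production of ribosomes, most of which takes place in the nucleolus. RNA polymerase I copies the ribosomal DNA into 1 long precursor RNA. Small nucleolar ribonucleoproteins (snoRNPs) guide the methylation of ribose (box C/D) and the conversion of uridine to pseudouridine (box H/ACA) on that RNA, and assembly factors cut, fold and pack it with ribosomal proteins into the small and the large subunit. The pathway is one of the heaviest costs of a dividing cell, is driven by the transcription factor MYC, and is used at high rates by activated B cells and by B cell lymphomas.

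The 37 genes described here encode proteins of this pathway. They were chosen by symbol for their function, not for a measured value, though with earlier results of these data known. All 37 were found among the 37646 genes listed in each library. Their roles were assigned from general knowledge: 5 act in RNA polymerase I transcription of ribosomal DNA, 7 are abundant nucleolar proteins with several roles, 4 belong to box C/D snoRNPs, 4 to box H/ACA snoRNPs, 6 to small subunit assembly and 11 to large subunit assembly. A further 129 genes of the pathway were read for comparison.

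The study profiled lymphoma cells of the pBIC mouse on the C57BL/6 strain, in which floxed p53 (p53F/F) and floxed Blimp1 (Blimp1F/F) are combined with IKK2castopF/stopF, an active form of the kinase IKK2 that stays silent until a floxed stop is removed. Recombination comes from Cg1Cre/+, a Cre recombinase in the C gamma 1 immunoglobulin locus, so it is limited to B cells that have transcribed that locus and to their progeny. Spleens were taken from mice that were moribund, and living B220+GFP+ cells were sorted and their polyadenylated RNA sequenced, 1 library for each of 3 tumours, here called tumours 1, 2 and 3. Ages are not given in the labels used here, all libraries carry the same genotype, and the germinal centre B cells that the design text names as controls were not analysed here, so no value below compares lymphoma with normal cells. The labels do not say outright that the animals were separate, and p-values then measure only the spread between these samples. Ribosomal RNA and the snoRNAs themselves are not polyadenylated, so the data describe the mRNAs of the machinery and not its activity.

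Each library held 15022902 to 15141009 counts. All 5 genes of the B cell list (Cd79a, Cd79b, Ms4a1, Pax5 and Ptprc) were at or above 1 CPM (read counts brought to a common library size with edgeR's TMM factors) in every tumour, with a summed level of 1383 to 3012 CPM. Ptprc encodes CD45, which is not limited to B cells, and gave 702, 323 and 419 CPM of this in tumours 1, 2 and 3. The summed level was 17.1 to 39.7 CPM for 6 T cell markers, 3.97 to 18.4 CPM for 4 natural killer cell markers, 9.51 to 77.1 CPM for 7 myeloid markers, 7.10 to 135.6 CPM for 6 erythroid markers and 0.651 to 2.71 CPM for 5 stromal and endothelial markers. The markers at or above 1 CPM in every tumour were 5 of 6, 2 of 4, 2 of 7, 3 of 6 and 0 of 5 of these lists in turn. Ncr1, Klrb1c, Col1a2, Pdgfrb and Kdr had no count in at least 1 library, and no gene of the lists was at 0 in all of them. The 4 plasma cell markers (Sdc1, Jchain, Xbp1 and Prdm1, the gene of Blimp1) summed to 135.8 to 590.5 CPM, highest in tumour 2. Of these, 3 of 4 were at or above 1 CPM in every tumour. Most of the sum came from Jchain (35.5, 413 and 232 CPM in tumours 1, 2 and 3) and Xbp1 (93.4, 157 and 60.9 CPM). Sdc1 stayed at 0.326 to 0.485 CPM. The part of other cells in the levels below was not tested, and in bulk RNA fewer cells of a type and less RNA per cell cannot be told apart.

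Sequences are shown first for the members whose counts depend most on where a read of 50 nt can be placed. Fbl encodes fibrillarin, the methyltransferase of box C/D snoRNPs (ENSMUSG00000046865.7, GRCm38 chromosome 7, 28169710 to 28179269, plus strand). Npm1 encodes nucleophosmin, an abundant nucleolar chaperone (ENSMUSG00000057113.13, GRCm38 chromosome 11, 33152287 to 33163206, minus strand). Below is 1 stretch of 50 bases from the coding part of the principal transcript of each, 5′ to 3′ on the mRNA strand, that is also found letter for letter in an annotated transcript of another gene. The letters come from GENCODE release M21, and positions count from the transcript's first base.
Fbl, positions 717 to 766: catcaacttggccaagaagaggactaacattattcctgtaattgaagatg
Npm1, positions 345 to 394: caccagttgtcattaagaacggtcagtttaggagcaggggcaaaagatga
A read made of either stretch could have come from more than 1 gene. In Fbl, 838 of the 1148 windows of 50 bases along the principal transcript (73.0%) occur in transcripts of other genes, and 805 of the 932 windows inside the coding sequence (86.4%). The longest unbroken run of shared windows covers positions 404 to 1096, which is 693 nt of a transcript of 1197 nt. The matching copies lie in transcripts of Tulp4 and of 2 processed pseudogenes, Gm5812 and, over fewer windows, Gm6211. In Npm1, 648 of 1584 windows (40.9%) are shared, all of them inside the coding sequence, where they make up 78.4% of windows. The copies there are mostly processed pseudogenes, of which Gm6477 received 201, 327 and 175 counts in tumours 1, 2 and 3.

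**Figure D1:**
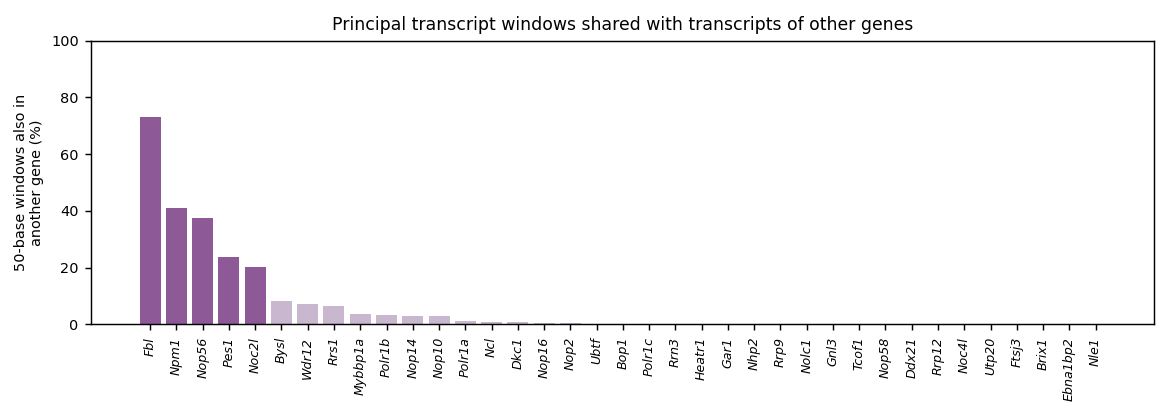
Share of the 50-base windows of each member's principal transcript that also occur in annotated transcripts of other genes, in percent, 1 bar per gene. The darker bars mark the 5 members over 20%: Fbl stands at 73.0%, Npm1 at 40.9%, Nop56 at 37.6%, Pes1 at 23.6% and Noc2l at 20.1%.

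Over 20% of windows were shared in 5 of the 37 members (13.5%) and in 13.7% of all 11478 genes tested for variability. How reads that map to several places were counted is not given in the sources used here, and the counts of these 5 members are uncertain to that extent. Noc2l differs from the other 4 in that most of its shared windows lie in Samd11, which overlaps it by 598 exon bases on the opposite strand. Whether strand was used in counting is not given either. Bysl overlaps Ccnd3, a cyclin gene with 747 to 943 counts, by 361 exon bases in the same way, and Heatr1 overlaps Lgals8 by 155.

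Promoters were read for the letters CACGTG, the E-box that MYC and other factors can bind. A window of 300 bases, from 250 before to 50 after the gene's start, was found for 31 of the 37 members in RefSeq (build GRCm38.p6). The letters occurred in 6 of these (19.4%), namely Rrn3, Nop2, Utp20, Pes1, Mybbp1a and Nle1, against 12.2% of 8755 tested genes with a window and 8.09% of all 27025 windows. The motif reads the same on both strands, and a match describes letters, not binding. In Pes1, Nle1, Utp20 and Mybbp1a the match lies after the start, by 2, 23, 37 and 40 bases. Rrn3 is shown because it is the member with 2 matches, 215 and 48 bases before the start, and Nop2 because its single match lies at a similar distance, 60 bases before the start. The E-box letters are in capitals, and both windows are given 5′ to 3′ on the plus strand, which is the strand of both genes.
Rrn3, chr16:13780449-13780748: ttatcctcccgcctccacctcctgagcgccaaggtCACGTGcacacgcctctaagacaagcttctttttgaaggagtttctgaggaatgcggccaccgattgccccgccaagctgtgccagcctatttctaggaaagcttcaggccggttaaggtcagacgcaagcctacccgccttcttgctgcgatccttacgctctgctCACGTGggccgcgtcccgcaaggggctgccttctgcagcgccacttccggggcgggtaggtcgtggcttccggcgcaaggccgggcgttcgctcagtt
Nop2, chr6:125131633-125131932: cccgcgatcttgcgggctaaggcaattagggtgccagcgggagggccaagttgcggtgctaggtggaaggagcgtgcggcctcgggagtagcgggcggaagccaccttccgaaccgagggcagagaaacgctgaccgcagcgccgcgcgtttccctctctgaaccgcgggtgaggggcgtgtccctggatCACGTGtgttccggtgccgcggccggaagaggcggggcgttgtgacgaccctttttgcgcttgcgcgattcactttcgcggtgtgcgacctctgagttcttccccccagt
Rrn3 encodes the factor that brings RNA polymerase I to the promoter, and Nop2 a methyltransferase of the large subunit RNA. Their levels in the 3 tumours were 137, 134 and 160 CPM for Rrn3 and 255, 338 and 231 CPM for Nop2.

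All 37 genes were expressed throughout. Each passed the filter on low counts (edgeR's filterByExpr) and was at or above 10 CPM in every tumour, and the mean level ran from 58.3 CPM for Fbl to 3278 CPM for Ncl. The median member stood at 229 CPM, against 33.4 CPM for the median of 11478 genes tested. Per length, as TPM (counts divided by the length of the union of a gene's exons and brought to a common total), the medians were 180.5 for the members and 22.4 for all genes tested. The members together took 1.33% of all counts in tumour 1, 1.54% in tumour 2 and 1.39% in tumour 3 (95% exact Clopper-Pearson intervals 1.33% to 1.34%, 1.53% to 1.54% and 1.39% to 1.40%, which cover counting error only). The mean share was 1.42% ± 0.105 (SD, n = 3). Of the counts on members, Ncl alone took 21.8% to 23.6% and Npm1 9.88% to 13.9%.

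**Figure D2:**
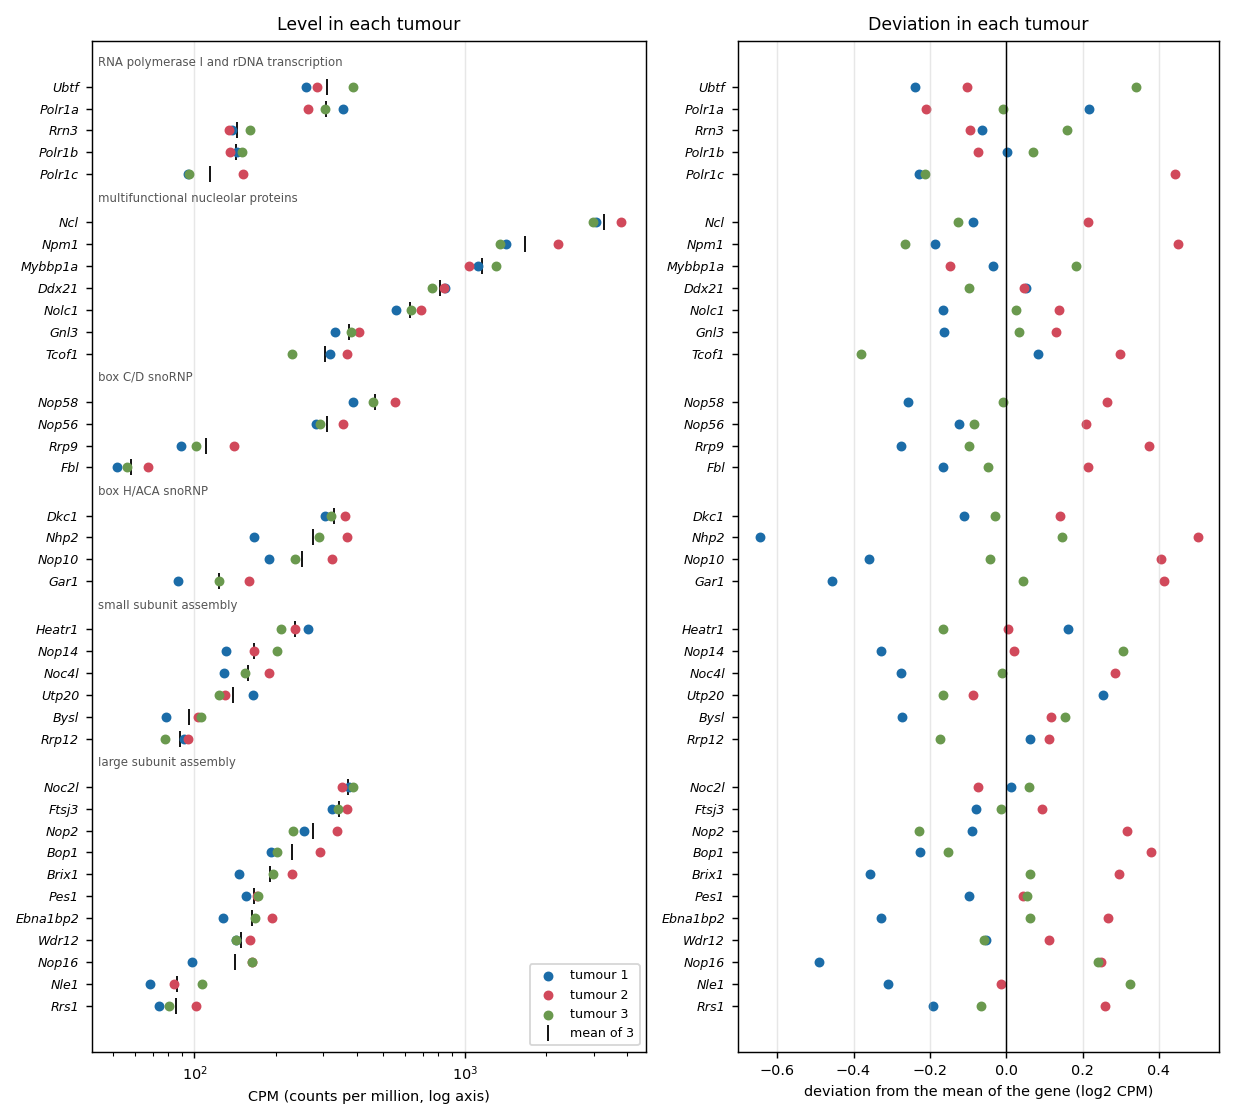
Left, level of each of the 37 members in each tumour in CPM on a log axis, grouped by role, with a vertical tick at the mean of the 3 tumours. Right, each tumour's deviation from the gene's mean in log2 CPM; the points of tumour 2 lie to the right for all box C/D and H/ACA members, and those of tumour 1 to the left.

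The genes of RNA polymerase I transcription held levels of 113.8 to 308.6 CPM. Polr1c encodes a subunit that polymerases I and III share, and had 94.8, 150.8 and 95.7 CPM in tumours 1, 2 and 3 (114 ± 32.1, SD, n = 3). It was the member of this group with the highest level per length (148 TPM) and the widest spread, with tumour 2 alone high, 1.59-fold above the lowest tumour. Polr1a and Polr1b encode the pair of large subunits that form the catalytic core. Polr1a had 355, 264 and 304 CPM, and Polr1b had 143, 136 and 150 CPM, the narrowest span of the group at 1.10-fold. Per length they stood side by side, at 78.8 and 74.3 TPM, although their counts differed. Polr1a minus Polr1b was 0.28, −0.07 and −0.01 on the log2(TPM + 1) scale in tumours 1, 2 and 3 (0.06 ± 0.19, SD, n = 3; exact two-sided sign-flip test, p = 1). The sign differed between tumours and between measures of length, so no order between the subunits can be read. Ubtf, which encodes the factor UBF that opens ribosomal DNA for transcription, and Rrn3 were at 309 and 144 CPM on average. Both were highest in tumour 3.

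The nucleolar proteins with several roles had the highest median of the 6 roles in CPM, 813. Per length their median was close to that of the H/ACA genes over the union of exons (473.5 against 453 TPM) and below it over coding length (313 against 422 TPM). Ncl encodes nucleolin, an RNA-binding protein of the nucleolus (ENSMUSG00000026234.12, chromosome 1, 86344719 to 86359400), and had 3069, 3778 and 2986 CPM, the highest count of all members in every tumour. Npm1 had 1426, 2217 and 1351 CPM, with tumour 2 clearly apart from the other two, 1.64-fold above tumour 3. Per length the order of the pair was the opposite, with Npm1 at 1856 TPM and Ncl at 963 TPM. Ncl minus Npm1 was −0.83, −1.17 and −0.79 on the log2(TPM + 1) scale (−0.93 ± 0.21, SD, n = 3), the same direction in 3 of 3 tumours. With 3 tumours the exact two-sided sign-flip test cannot go below p = 0.25, which is the value it gave (0.3 after Benjamini-Hochberg adjustment over 6 differences). With the median length of the annotated transcripts in place of the union of exons the order turned, to 1.31, while it held with the length of the principal transcript, the coding length and the windows found in no other gene. Tcof1 encodes treacle, which links RNA polymerase I to ribosomal DNA, and had the lowest level per length of the group (173 TPM), with 316, 367 and 229.5 CPM. Nolc1, Ddx21, Mybbp1a and Gnl3, which encode a snoRNP chaperone, an RNA helicase, a transcription regulator and a GTPase of the nucleolus, lay between 373 and 1155 CPM and spanned 1.11-fold to 1.26-fold.

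In the box C/D group all 4 genes had their highest level in tumour 2 and their lowest in tumour 1. Nop58 had 385, 552 and 457 CPM and Nop56 had 283, 356 and 290 CPM. These genes encode the paired core proteins that hold the guide RNA. Rrp9 encodes a protein found only in the snoRNP of the U3 RNA, and had 89.4, 140.4 and 101 CPM, the widest span of the group at 1.57-fold. Fbl had 51.7, 67.2 and 56.0 CPM, the lowest level of the 37 members (58.3 ± 8.04 CPM, SD, n = 3). Its level per length depended on the length used: 41.4 TPM over the union of exons, 102 TPM over the principal transcript, and 294 TPM when the count was divided only by windows found in no other gene. Nop56 minus Nop58 was 0.94, 0.75 and 0.73 on the log2(TPM + 1) scale (0.81 ± 0.11, SD, n = 3; exact two-sided sign-flip test, p = 0.25, 0.3 adjusted over 6 differences). That order turned under the length of the principal transcript (−0.71), the coding length (−0.96) and the median transcript length (−0.95), since the exon union of Nop58 is 10758 nt and its principal transcript 1713 nt.

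The box H/ACA group had the widest median span between tumours, 1.76-fold. Nhp2 encodes a core protein that binds the guide RNA (ENSMUSG00000001056.3, chromosome 11, 51619735 to 51623714), and had 166, 368 and 288 CPM (274 ± 102, SD, n = 3). It had the widest span of the 37 members, 2.22-fold between tumours 1 and 2. Nop10 and Gar1 encode the small partner proteins of the same particle. Nop10 had 189, 322 and 236 CPM, a 1.70-fold span. Gar1 had 86.8, 159 and 123 CPM, a 1.83-fold span. Dkc1 encodes dyskerin, the pseudouridine synthase itself, and had 303.5, 361 and 321 CPM, a span of 1.19-fold. In CPM, all 4 genes were highest in tumour 2 and lowest in tumour 1, although Dkc1 much less so than its partners. The same proteins also form part of the telomerase particle.

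Per length the H/ACA genes stood above the core box C/D genes (Fbl, Nop56 and Nop58) over the union of exons. The difference between the group medians was −1.52, −1.67 and −1.59 on the log2(TPM + 1) scale (−1.60 ± 0.07, SD, n = 3), which puts the H/ACA genes 3.02-fold higher. The exact two-sided sign-flip test gave p = 0.25, the smallest it can give (0.3 adjusted over 6 differences). The order depended on the length used. It held over coding length (−0.98) and over unshared windows of all transcripts (−1.63), and turned over principal transcripts (0.05), their unshared windows (0.67) and the median transcript length (0.55). The data therefore give no fixed order of these groups per length.

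Small subunit assembly factors had a median of 148 CPM. Nop14, a component of the particle that processes the early small subunit precursor, had 131, 166.5 and 203 CPM, with tumour 1 low and tumour 3 high, a 1.55-fold span. Utp20, another component of that particle, had 164, 129.5 and 123 CPM, with tumour 1 high, and the lowest level per length of the group (41.3 TPM against 183 TPM for Nop14). Heatr1, Noc4l, Bysl and Rrp12, which act at successive steps of the same subunit, lay between 88.1 and 236 CPM and spanned 1.22-fold to 1.47-fold. Each tumour was the highest for 2 of the 6 genes.

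Large subunit assembly factors had a median of 165 CPM. Noc2l was among the steadiest of the 37 members, with 374, 352 and 386 CPM (371 ± 17.2, SD, n = 3), a span of 1.10-fold, and the highest level per length of the group (390.5 TPM). Nop16 had 98.1, 164 and 163 CPM, with tumour 1 alone low and a span of 1.67-fold. Wdr12 forms the PeBoW complex with Pes1 and Bop1 and had 143, 160.5 and 142.5 CPM. Its level per length was the lowest of all members over the union of exons (37.4 TPM) but 124 TPM over its coding length. Pes1 and Bop1 were at 165 and 229 CPM. Nop2, Ftsj3, Brix1, Rrs1, Ebna1bp2 and Nle1 lay between 85.1 and 343 CPM. No gene of this group was highest in tumour 1, 8 of 11 were highest in tumour 2 and 3 in tumour 3.

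The large subunit factors stood above the small subunit factors per length, by 0.99, 1.55 and 1.33 on the log2(TPM + 1) scale (1.29 ± 0.28, SD, n = 3), or 2.44-fold. The exact two-sided sign-flip test gave p = 0.25 (0.3 adjusted over 6 differences), with the same direction in 3 of 3 tumours. The difference was 1.24 over principal transcripts and 1.31 over coding lengths, and turned to −0.18 over the median transcript length. The 37 members as a whole stood above the 129 other genes of the pathway by 1.18, 1.27 and 1.23 (1.23 ± 0.05, SD, n = 3), or 2.34-fold. The exact two-sided sign-flip test again gave p = 0.25 (0.3 adjusted over 6 differences). This difference kept its sign under all measures of length tried.

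**Figure D3:**
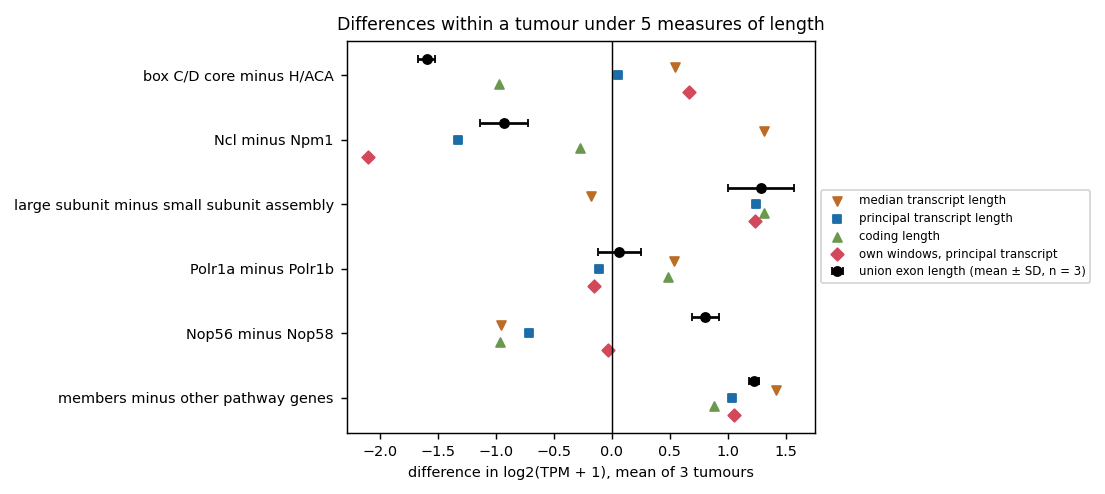
The 6 differences between members or groups within a tumour, in log2(TPM + 1), for 5 ways of dividing counts by length. Black circles are the mean over 3 tumours with the exon union length and bars the SD; the other symbols are means under the other measures, and only the members minus other pathway genes stay on 1 side of 0 under every measure drawn.

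The next question was whether the genes differed between tumours. An F test built on edgeR's quasi-likelihood fit asked whether a gene varied more than genes of similar abundance. In this variability test 0 of the 37 were called at an adjusted p under 0.05, and 0 had an unadjusted p under 0.05. The lowest adjusted p of the test, that of Nhp2, was 0.936. The same test called 16 of 11478 genes, or 0.139%, and 720 had an unadjusted p under 0.05. Without tumour 1 or tumour 2 it called 0 of all genes, with 654 and 606 at an unadjusted p under 0.05. A p that misses the threshold does not show that levels were equal. The median member spanned 1.34-fold between its lowest and highest tumour, against 1.64-fold for all genes tested and 1.502-fold for the 3998 genes within the same range of mean CPM. Only Nhp2 passed 2-fold between tumours 1 and 2 (1 of 37, against 13.7% of all genes tested). No member passed 2-fold between tumours 1 and 3, where 14.8% of genes did, or between tumours 2 and 3, where 17.2% did. At 1.5-fold, 13 of 37 members passed between some pair of tumours, against 61.8% of genes tested. These shares are over all genes tested, whose median level was 33.4 CPM against 229 CPM for the members. They are not given for genes within the members' range of mean CPM.

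The small differences that remained leaned in 1 direction for most members, though not in every role. In CPM, tumour 2 was the highest for 24 of the 37 members (64.9%), while it was the highest for 35.8% of all genes tested. Tumour 1 was the highest for 4 members (10.8%, against 32.4%) and tumour 3 for 9 (24.3%, against 31.8%). Tumour 1 was the lowest for 23 members (62.2%, against 32.5% of all genes). Among genes within the members' range of mean CPM, 42.3% were highest in tumour 2 and 40.9% lowest in tumour 1. The lean to tumour 2 was weaker in TPM. Of the 24 members, Dkc1, Rrp12, Wdr12, Tcof1 and Ftsj3 were then highest in tumour 1, and Nolc1, Nop16 and Gnl3 in tumour 3. No other member became highest in tumour 2, and the share of all genes in TPM is not given here. The median member deviated from its own mean by −0.16, 0.14 and −0.01 on the log2 CPM scale in tumours 1, 2 and 3. These are descriptions of 3 libraries, with no test, and the genes are not independent replicates.

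By role, the shift was widest in the H/ACA genes, with median deviations of −0.41, 0.41 and 0.01 (log2 CPM), followed by the box C/D genes (−0.21, 0.24 and −0.07) and the large subunit factors (−0.19, 0.25 and 0.05). The 5 RNA polymerase I members had −0.06, −0.10 and 0.07, with Polr1c alone highest in tumour 2. Of the 15 other genes of that role, 10 were highest in tumour 2 (66.7%), with median deviations of −0.25, 0.34 and −0.03. All 10 encode polymerase subunits, among them Polr2e, Polr2f, Polr2h, Polr2k and Polr2l, which other RNA polymerases share. Taf1a, Taf1b, Taf1c, Taf1d and Ttf1 were each highest in tumour 1 or 3. These 15 genes are also shorter, with a median exon union of 2624 nt against 5805 nt for the 5 members. The other pathway genes followed the members: 81 of 129 were highest in tumour 2 (62.8%) and 84 lowest in tumour 1, with median deviations of −0.19, 0.19 and 0.01. Of these 129 genes, 126 were at or above 10 CPM in every tumour, none was called by the variability test, and Mdn1 alone had an unadjusted p under 0.05.

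Mdn1 encodes a very large ATPase that strips factors from the large subunit precursor. It had 531, 231 and 198 CPM, with tumour 1 alone high (variability test on edgeR's fit, adjusted p = 0.621). The next widest spans among other pathway genes at a mean of 10 CPM or more were those of Esf1, with 89.2, 130 and 50.4 CPM, and of Utp11, with 86.2, 159 and 72.8 CPM. Both encode small subunit factors, and both were highest in tumour 2, as were Pih1d1 (32.7, 62.95 and 29.5 CPM), which helps to build snoRNPs, and Znrd1 (27.9, 59.3 and 35.9 CPM), a small subunit of RNA polymerase I.

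A property of the libraries moved with this pattern. Across 11470 tested genes with a length, short genes were relatively high in tumour 2 and long genes in tumour 1: the shortest twentieth deviated by 0.18 and the longest by −0.33 in tumour 2 (median, log2 CPM), and by −0.23 and 0.37 in tumour 1. Tumour 3 showed little of it, with 0.06 and −0.06. Among the members the deviation followed the log of exon union length with r = 0.71 in tumour 1 (Spearman's rho 0.71), −0.61 in tumour 2 (rho −0.63) and −0.14 in tumour 3 (rho −0.10), each over 37 genes of 1 library. The H/ACA genes have a median exon union of 1430 nt against 3971 nt for all 37. Nhp2 (1146 nt), Nop10 (1109 nt) and Gar1 (1714 nt) are among the shortest members, whereas Dkc1 (4121 nt) lies above that median.

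**Figure D4:**
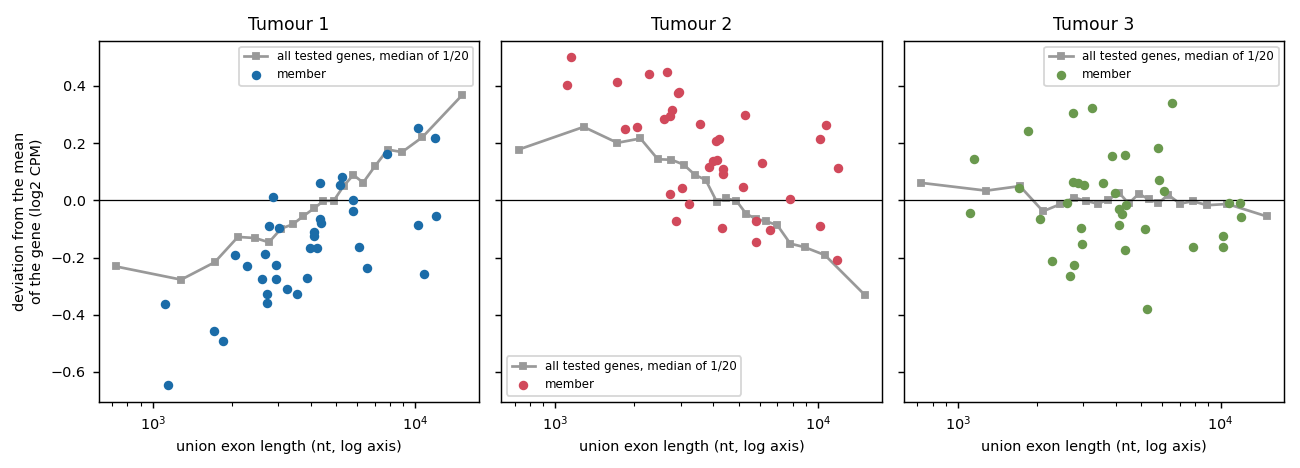
Deviation of each member from its own mean over the tumours (log2 CPM) against its exon union length (nt, log axis), 1 panel per tumour, with grey squares at the median of each twentieth of all tested genes. Both grey line and members run upward in tumour 1 and downward in tumour 2, and most members lie above the grey line in tumour 2.

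With the length trend of each library removed, 26 of the 37 members were highest in tumour 2 (70.3%, against 33.9% of all genes tested), 1 in tumour 1 and 10 in tumour 3. Among genes within the members' range of mean CPM, 44.25% were then highest in tumour 2. The part of length in the pattern was not tested. The size of the shift did not change alike for all roles. The H/ACA medians shrank from −0.41 to −0.16 in tumour 1 and from 0.41 to 0.18 in tumour 2. Those of the large subunit factors shrank from −0.19 to −0.13 and from 0.25 to 0.09. The box C/D medians were −0.16 and 0.23 with the trend removed. The trend was taken over exon union length, which for Nop58 is 10758 nt against 1713 nt for its principal transcript. The deviations of Nop58 grew from −0.26 to −0.48 in tumour 1 and from 0.27 to 0.46 in tumour 2. A trend over principal transcript length was not tested, so these counts and medians hold for exon union length only. No member then passed 2-fold, Nhp2 included. In CPM, all 4 H/ACA and all 4 box C/D genes stayed highest in tumour 2 under each scaling and trend removal tried. In TPM, Dkc1 was nearly level and highest in tumour 1, at 241, 240 and 236 in tumours 1, 2 and 3. The count for small subunit factors moved from 2 of 6 to 4 with length removed. It was 1 with GC content removed or with library totals alone. Removing the trend with GC content left 25 of 37 members highest in tumour 2, and library totals alone left 22.

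Most genes of a short proliferation list were also highest in tumour 2. All 11 genes of this list (Mki67, Top2a, Pcna, Cdk1, Ccnb1 and 6 Mcm genes) were at or above 1 CPM in every tumour, with a summed level of 3167, 3729 and 2267 CPM and median deviations of −0.25, 0.39 and −0.26. Tumour 2 was the highest for 9 of the 11, the 6 Mcm genes among them, and for 35.8% of all genes tested. Mki67 (833, 451 and 306 CPM) and Top2a (649, 629 and 270 CPM) were highest in tumour 1. The summed level of the plasma cell list, mostly Jchain and Xbp1, was also highest in tumour 2 (136, 590.5 and 303 CPM). That of the B cell list was highest in tumour 1 (3012, 1669 and 1383 CPM). The part of proliferation or of cell make-up in the members' levels was not tested.

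A minority of the members had further features that played no role in their choice. Genes of snoRNAs or of small Cajal body RNAs lay within 5 of the 37 on the same strand (13.5%), against 1.81% of genes tested. Other classes of small RNA were not counted in these shares. Nop56 holds 5 snoRNA genes, Nop58 holds 4, Ncl and Gnl3 hold 3 each and Dkc1 holds 1. Among them are the box C/D snoRNA genes Snord57 and Snord110 in Nop56 and Snord11 and Snord70 in Nop58, so the genes of both paired core proteins also carry guide RNAs of the class that these proteins bind. On chromosome 11 lay 7 of the 37 members (18.9%), Npm1, Nhp2, Ubtf, Mybbp1a, Pes1, Ftsj3 and Nle1, against 8.38% of genes tested. Npm1, Nhp2 and Ftsj3 of these were highest in tumour 2 and Ubtf, Mybbp1a, Pes1 and Nle1 in tumour 3.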

How the data were processed

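Sorted splenic lymphoma cells gave 3 libraries of 1 group, numbered in accession order. The authors deposited whole-number read counts, not normalized, with 1 file for each library, per the file headers and their values. The submitters' processing notes name FastQC, STAR 2.5.2b, featureCounts 1.6.0 and the build mm10. Settings, use of strand and annotation release were not given in those sources. Totals were 15141009, 15022902 and 15074513 counts. Libraries differed from each other beyond sampling noise (chi-square per degree of freedom 41.9 to 45.7). Without molecular identifiers, intervals cover counting error only, and 3 counts correspond to 0.194 to 0.208 CPM.

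CPM values came from TMM factors of 1.023, 0.9601 and 1.018 (edgeR 4.0.16, R 4.3.3). Log2 deviations used a pseudocount of 0.1 CPM. TPM used union exon lengths of GENCODE release M21 (GRCm38, the assembly of mm10). Gene identifiers matched that release with the same version for 36825 genes and with another version for 711, and 110 had none. An intercept-only edgeR quasi-likelihood fit with a robust prior covered the 11478 genes passing filterByExpr. The residual quasi-deviance over the prior variance was referred to an F distribution (2 and 15.8 degrees of freedom, one-sided), and p-values were adjusted by Benjamini-Hochberg at a threshold of 0.05. The 6 within-tumour differences in log2(TPM + 1) had exact two-sided sign-flip tests. Windows of 50 bases were compared with annotated transcripts of other genes on both strands. No genome sequence was used.

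Values in every tumour are printed for the members with the highest and lowest mean TPM and the largest span of each role, for the 6 with the smallest p, for the genes of the differences, and for the 5 other pathway genes of largest span. Mki67, Top2a, Rrn3 and Nop2 were chosen outside that rule, with their values in view. 1 gene of the planned B cell marker list is not reported here. The members, roles and lists were chosen with earlier results of these data known. Removal of length and GC trends (20 bins of genes), principal transcript and coding lengths, and windows of the principal transcript were added after seeing the data. Other alternatives were other scalings, filters, priors and pseudocounts, and leaving out each library.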

Additional observations from a re-analysis of the deposited data

How the results depend on the processing

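No paired analysis was possible because all libraries belong to 1 group and their numbers follow accession order. The levels and adjusted p-values of single members were recomputed as 185 levels and 296 adjusted p-values; 0 levels moved by more than the spread between tumours and 0 calls changed. No member was called under any setting, and the number at or above 10 CPM was 37 throughout. The count of all genes called was 16 with the main settings, 164 with no filter on low counts, and 0 with library totals alone, with a mean count of at least 10 as filter or with a non-robust prior; it was 0 without tumour 1 or tumour 2 and 11 without tumour 3. The same tables gave 709, 781 and 571 genes with an unadjusted p under 0.05 for the settings with 0 calls.

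The length used moved the levels. The members' median of 180.5 TPM became 232.5 with the median transcript length, 143 with unshared windows of all transcripts, 158 with the principal transcript, 124 with the coding length, 129 with unshared windows of the principal transcript, and 171 to 186 with 1 library left out. On the log2(TPM + 1) scale, the median transcript length turned box C/D core minus H/ACA to 0.55, Ncl minus Npm1 to 1.31, large minus small subunit assembly to −0.18 and Nop56 minus Nop58 to −0.95. The principal transcript length turned the first to 0.052, Nop56 minus Nop58 to −0.71 and Polr1a minus Polr1b to −0.11. Its unshared windows gave 0.67, −0.033 and −0.15 for the same 3 differences, and the coding length turned Nop56 minus Nop58 to −0.96. Polr1a minus Polr1b was −0.042 without tumour 1, the lowest of a range up to 0.13 with any 1 library left out. The turns between length measures come from the lengths, since the counts were the same. Members past 2-fold numbered 1, became 13 at 1.5-fold and 0 with the length trend removed, and those highest in tumour 1 went from 4 to 1 with that trend removed. The design has 3 libraries and no control group, so no sign-flip test could pass 0.05.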
